A study of Mus musculus with 9 samples.

Results

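The fibrinogen gene cluster of the mouse was examined as 1 stretch of chromosome 3, with all XBP1 peaks whose midpoint fell in a window of 150 kb from position 82750001 of chromosome 3 (mm9) onwards taken as its members. Of the 64078 peaks deposited in 8 lists, 68 lay in this window. The window was chosen with its peak number 6 h after hepatectomy known, so the number, spacing, width and rank of these peaks are given as a description, with no test.

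XBP1 was mapped by chromatin immunoprecipitation and sequencing (ChIP-seq) in livers of C57Bl6-J mice with the antibody M-186, and regions enriched in the reads (peaks) were called per library. The lists came from XBP1-silenced and unsilenced basal liver (177 and 2482 peaks), from silenced and unsilenced liver 6 h after partial hepatectomy (4325 and 22071 peaks), from liver 6 h after a sham operation (23087 peaks), from silenced and unsilenced liver 48 h after hepatectomy (102 and 7212 peaks) and from liver 48 h after sham surgery (4622 peaks). Surgery was at 8 weeks of age, and the sham operation opened the abdomen and exposed the liver lobes without removing them. Silenced livers (genotype label wildtype with shXBP1) carried an adenovirus with a short hairpin RNA against XBP1, injected into the tail vein 7 days earlier, with clodronate liposomes given 24 h before the virus. The protocols also name a virus against LacZ as control, but no label says which unsilenced animals received it, or whether a library came from 1 animal or several. Every condition had 1 library, no source used here gave read numbers, and input DNA was not analysed here. In bulk liver, fewer bound cells and less binding per cell cannot be told apart.

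Fibrinogen is the plasma protein that thrombin turns into fibrin, the mesh of a blood clot. It is assembled from Aα, Bβ and γ chains, encoded by Fga, Fgb and Fgg, which hepatocytes fold and join by disulfide bonds in the endoplasmic reticulum before secretion. The genes are classical members of the acute-phase response, in which interleukin-6 raises their transcription in liver through STAT3 and C/EBP factors. XBP1 is a transcription factor that becomes active when IRE1 splices its messenger RNA under stress of the endoplasmic reticulum, and it drives genes of the secretory pathway.

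In RefSeq's gene table of build GRCm38.p6 the cluster runs in the order Fgg, Fga, the long noncoding RNA gene Gm40075 and Fgb. Fgb points against Fgg and Fga. The neighbours before Fgg are the long noncoding RNA gene Gm30097 and Lrat, which encodes lecithin retinol acyltransferase, and the neighbour after Fgb is Plrg1, a gene of the splicing machinery. No gene annotation of mm9 was used here, so no peak was assigned to a gene, a promoter, an exon or an intron, and peaks are named by their mm9 position alone.

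The promoters are shown because they are the start regions of the 3 genes for which the window was chosen. They run from 250 bases before to 50 bases after each start site, and all were found in RefSeq's promoter table. Their positions are in GRCm38.p6 and cannot be set against the mm9 peak positions. They are chr3:83007474-83007773 (plus strand) for Fgg, chr3:83025903-83026202 (plus strand) for Fga and chr3:83049814-83050113 (minus strand) for Fgb. Capitals mark matches to TTCNNNGAA, a core bound by STAT factors, or to TTNNGNAAT, a core bound by C/EBP factors, searched on both strands.
Fgg: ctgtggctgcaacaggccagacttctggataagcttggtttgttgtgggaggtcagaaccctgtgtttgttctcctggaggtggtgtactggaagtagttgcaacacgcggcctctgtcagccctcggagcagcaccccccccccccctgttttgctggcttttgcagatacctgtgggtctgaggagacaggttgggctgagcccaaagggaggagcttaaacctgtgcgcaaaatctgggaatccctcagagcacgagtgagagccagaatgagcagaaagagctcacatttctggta
Fga: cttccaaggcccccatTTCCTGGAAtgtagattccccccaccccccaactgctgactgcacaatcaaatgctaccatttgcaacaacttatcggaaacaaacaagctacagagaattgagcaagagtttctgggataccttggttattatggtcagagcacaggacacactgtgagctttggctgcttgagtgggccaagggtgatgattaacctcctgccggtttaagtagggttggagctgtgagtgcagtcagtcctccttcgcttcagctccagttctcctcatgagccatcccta
Fgb: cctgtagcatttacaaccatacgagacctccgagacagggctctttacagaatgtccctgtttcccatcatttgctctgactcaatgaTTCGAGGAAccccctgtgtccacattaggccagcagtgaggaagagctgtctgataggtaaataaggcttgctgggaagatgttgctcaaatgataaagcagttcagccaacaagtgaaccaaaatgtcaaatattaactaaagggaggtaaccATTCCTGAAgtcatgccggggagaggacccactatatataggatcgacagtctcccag

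TTCNNNGAA was found in the promoters of Fga, from base 17 to base 25 of the printed run, and of Fgb, from base 89 to base 97. This letter pattern was present in 8.3% of the 32851 promoters of the table. TTNNGNAAT was found once, on the opposite strand of the Fgb promoter from base 243 to base 251, and in 11.5% of all promoters. Fgg held neither. The cores of XBP1 recognition were not in these windows: ACGT (30.9% of all promoters), CCACG (32.8%) and TGACGT (7.51%), which overlaps ACGT, were in none of the 3 promoters. Nor was CCAAT (37.4%), or CCAAT followed by CCACG after 9 bases (0.119%), the endoplasmic reticulum stress element. Absence says only that these letters are not in these windows, and peaks could not be placed relative to them.

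XBP1 peaks were many in the cluster 6 h after surgery in unsilenced liver, and few or not called in the other livers, whose lists were shorter. At 6 h after hepatectomy silenced liver had 3 peaks there and unsilenced liver had 35, and sham-operated liver of the same time had 23. At 48 h the hepatectomy list had 4 peaks there and the sham list 3. Silenced basal liver, basal liver and silenced liver 48 h after hepatectomy had none. Within equal numbers of highest-scoring peaks these differences were smaller or gone: silenced and unsilenced liver at 6 h had 3 and 3 peaks among their 4325 highest, hepatectomy had 7 at 6 h and 4 at 48 h among 7212, and sham had 3 at 6 h and 3 at 48 h among 4622.

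Set against the length of each list, the window took 0.0694% of the peaks in silenced liver 6 h after hepatectomy (0.0143 to 0.203%, exact Clopper-Pearson 95% interval, counting error only). It took 0.159% of the peaks in unsilenced liver 6 h after hepatectomy (0.11 to 0.22%) and 0.0996% of those 6 h after the sham operation (0.0632 to 0.149%). The share was 0.0555% 48 h after hepatectomy (0.0151 to 0.142%) and 0.0649% 48 h after the sham operation (0.0134 to 0.19%). The count of 0 in silenced basal liver allows a share of up to 1.69% (3 counts of the total), and that in silenced liver at 48 h one of up to 2.94%, both above every share seen. In the basal list the limit was 0.121%, so a share as at 48 h, or as 6 h after the sham operation, could not have been told apart from none. The exact upper bound for the basal list was 0.149%, which lies within the interval of the share 6 h after hepatectomy.

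**Figure D1:**
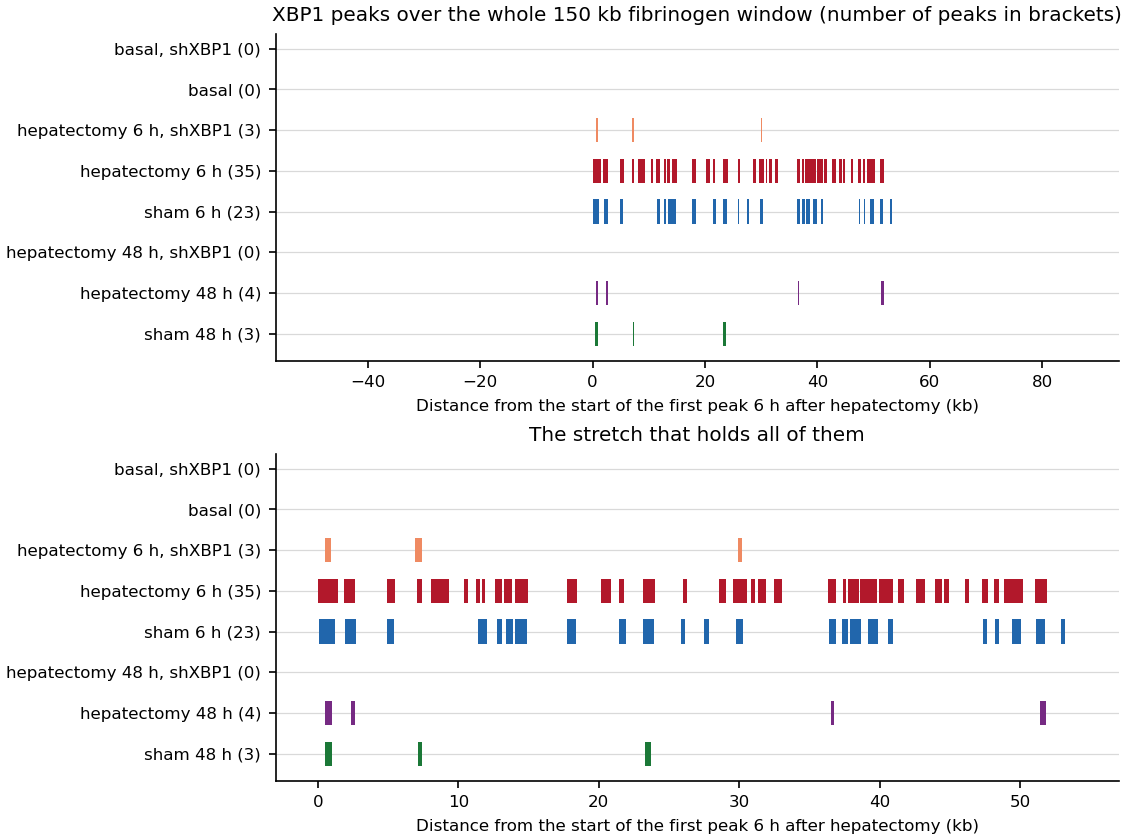
Position of every XBP1 peak in the 150 kb window, 1 row per list, with the distance in kb from the start of the first peak 6 h after hepatectomy on the x axis; bars are drawn to the width of the peaks. The 35 hepatectomy and 23 sham peaks at 6 h fill a stretch of just over 50 kb, and the flanks are empty in all 8 lists.

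The peaks formed a block with sharp ends. After hepatectomy at 6 h they ran from 82806381 to 82858268, a span of 51.9 kb, of which 42.3% (21.9 kb) lay under peaks. In the 6 h sham list they ran from 82806494 to 82859573, a span of 53.1 kb with 23.6% (12.5 kb) under peaks. The starts of the first peak differed by 113 bp between both lists. At the far end the sham list had a peak beyond the last hepatectomy peak, chr3:82859299-82859573 (score 8.67).

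The block had empty flanks. In the hepatectomy list at 6 h the nearest peak before it lay 644.4 kb away (chr3:82161606-82162012, score 17.2) and the nearest after it 805.3 kb away (chr3:83663520-83663894, score 24.23). In the 6 h sham list the distances were 289.7 kb and 804 kb. Longer gaps made up 3.61% and 2.83% of all gaps in the hepatectomy list, and 7.47% and 2.71% of those in the sham list. The median gap between neighbouring peaks was 19.9 kb over the whole hepatectomy list and 18.6 kb over the whole sham list. The window's ends were 57.1 kb before the first and 42.1 kb after the last hepatectomy peak by their midpoints, so its exact placing did not decide which peaks were taken. The basal list had its nearest peaks 3320 kb before the window and 769 kb after it.

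Inside the block, gaps were short in both unsilenced 6 h lists. The silenced 6 h list had 2 gaps, of 5970 and 22470 bp. The 34 gaps between neighbouring peaks of unsilenced liver 6 h after hepatectomy ranged from 61 to 3311 bp with a median of 602 bp, and 24 of them (70.6%) were under 1 kb, against 11.8% of the gaps over the whole list. The 22 gaps in the 6 h sham list ranged from 95 to 6456 bp with a median of 1110 bp. Of these 10 (45.5%) were under 1 kb, against 11.5% over the whole list. The window was chosen with its hepatectomy peak number at 6 h known, so its short gaps are no separate result. Gaps inside other dense windows were not measured.

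**Figure D2:**
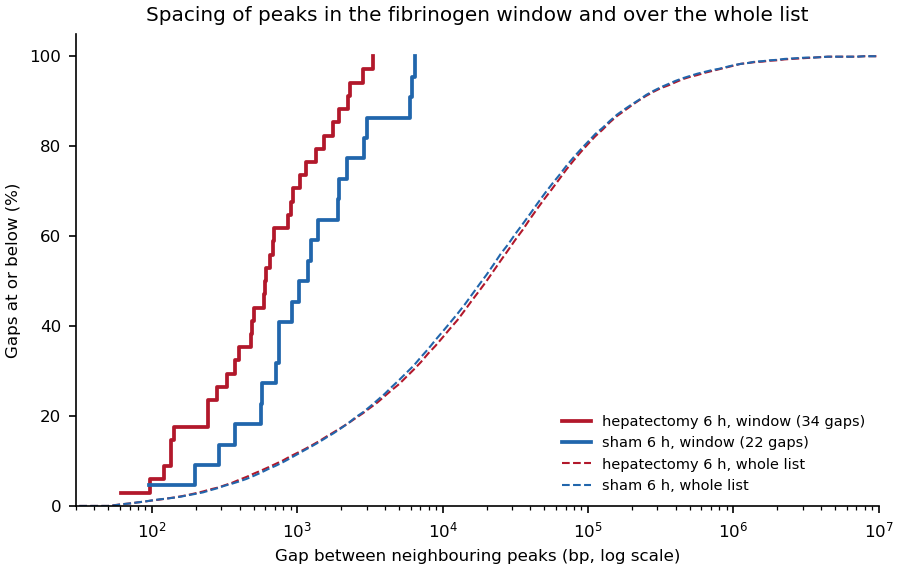
Share of gaps (y axis, %) at or below a given length (x axis, bp, log scale) for the window's peaks (solid) and the whole list (dashed), 6 h after hepatectomy (red) and sham operation (blue). The window's medians of 602 bp and 1110 bp lie far left of the list medians of 19.9 kb and 18.6 kb. Since the window was chosen with its peak number known, this is no separate result.

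Peaks of the block were wider at the median than those of the whole list in all 5 lists with a peak there. The 3 silenced 6 h peaks were 442, 471 and 288 bp wide, against a list median of 333 bp. In unsilenced liver the median width was 531 bp 6 h after hepatectomy (from 259 to 1418 bp), against 429 bp over the whole list. It was 494 bp 6 h after the sham operation (from 252 to 1103 bp), against 412 bp over the list. The widest peak of both lists was the first of the block, chr3:82806381-82807798 after hepatectomy and chr3:82806494-82807596 after sham. The peaks at 48 h were 457, 347, 190 and 420 bp wide after hepatectomy, with a median of 384 bp against 290 bp over the list, and 469, 266 and 470 bp wide after the sham operation, with a median of 469 bp against 379 bp.

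When the genome was divided into windows of the same length, in step with this one, no other window held as many peaks in either 6 h list. After hepatectomy 35 peaks compared with 22 in the next window and a median of 2 over the 6763 windows with a peak. After sham 23 compared with 22 in the next, and a median of 2 over 6889 windows. The bases under peaks, 21.9 kb after hepatectomy and 12.5 kb after sham, were also the highest of all windows, with 14.3 kb and 11.6 kb in the next. The lead was small with peaks less than 500 bp apart merged. The window then held 20 peaks after hepatectomy, against 18 in the next, and 19 after sham, against 18. With a score of at least 10 required, the window came first after hepatectomy (25 peaks, against 19 in the next). After sham it shared second place (18 peaks, as in 3 windows including this one, against 19 in the highest). In the shorter lists it was less prominent: 92 windows of the silenced 6 h list held more than its 3 peaks. No other placing of the windows was tried. The fibrinogen block lay wholly inside its window, while other clusters may be cut at an edge. The adjacent windows chr8:129100001-129250000 and chr8:129250001-129400000 held 20 and 22 hepatectomy peaks and 19 and 18 sham peaks at 6 h. The first place, with 23 against 22 after sham, therefore holds for this division of the genome only.

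**Figure D3:**
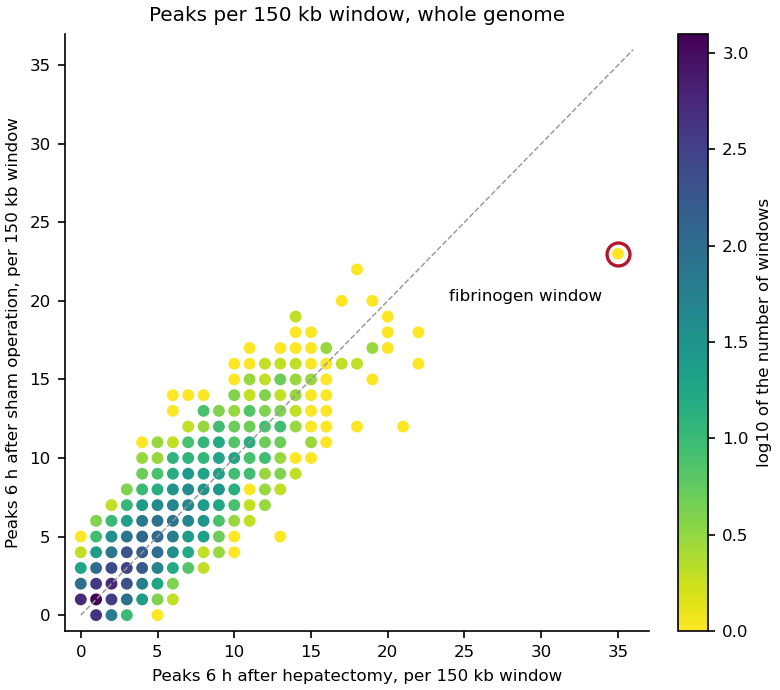
Number of peaks 6 h after hepatectomy (x axis) and 6 h after sham operation (y axis) in each 150 kb window of the genome; each point is a pair of values, coloured by the log10 of the number of windows with it, and the dashed line marks equal numbers. The fibrinogen window, circled, has 35 and 23 peaks, and no other window exceeds 22 on either axis.

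Other dense windows differed from the fibrinogen window in basal liver more often than not. Of the 272 other windows with at least 10 peaks 6 h after hepatectomy, 177 held a basal peak and 95 held none, as here. A silenced 6 h peak was missing in 24 of them. Relative to the 6 h hepatectomy number, silenced 6 h peaks were as few as here or fewer in 51 of the 272. Peaks 48 h after hepatectomy were as few or fewer in 37. The ratio of hepatectomy to sham peaks at 6 h was 1.52 here, against a median of 1.07 in the others (from 0.625 to 2.6). All of these windows were chosen by their hepatectomy number, which raises the ratio.

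Strong peaks were few in the block. The scores of the authors' peak caller are read here as −log10 of a p-value, from their values only. After hepatectomy at 6 h they ranged from 6.17 to 113.6 with a median of 11.7, against 19.0 over the whole list. At 6 h after the sham operation they ranged from 5.87 to 67.69 with a median of 13.6, against 16.3. Of the 35 hepatectomy peaks 10 were in the upper 50% of their list by rank and 1 in the upper 10%. Of the 23 sham peaks 8 were in the upper 50% and 2 in the upper 10%. The fibrinogen window thus held mainly peaks from the lower 50% of both unsilenced 6 h lists.

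The 5 highest-scoring peaks after hepatectomy at 6 h were spread along the block. First came chr3:82806381-82807798, at the start, with a score of 113.6 and rank 1140. It was followed by chr3:82842714-82843244 (score 69.19, rank 2315), chr3:82829521-82830400 (48.97, rank 3628), chr3:82855241-82856587 (38.97, rank 4876) and chr3:82824145-82824794 (34.85, rank 5547). All 5 had a sham peak on them.

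The 6 h sham list was led by the same pair of sites, while the next 3 differed. The peak at the start of the block, chr3:82806494-82807596, had a score of 67.69 and rank 1117, and chr3:82842767-82843283 had 64.97 and rank 1190. Next were chr3:82857469-82858106 (37.38, rank 3291), at the far end, chr3:82808343-82809100 (30.04, rank 4664) and chr3:82817754-82818421 (28.73, rank 5013). All 5 lay on a hepatectomy peak.

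**Figure D4:**
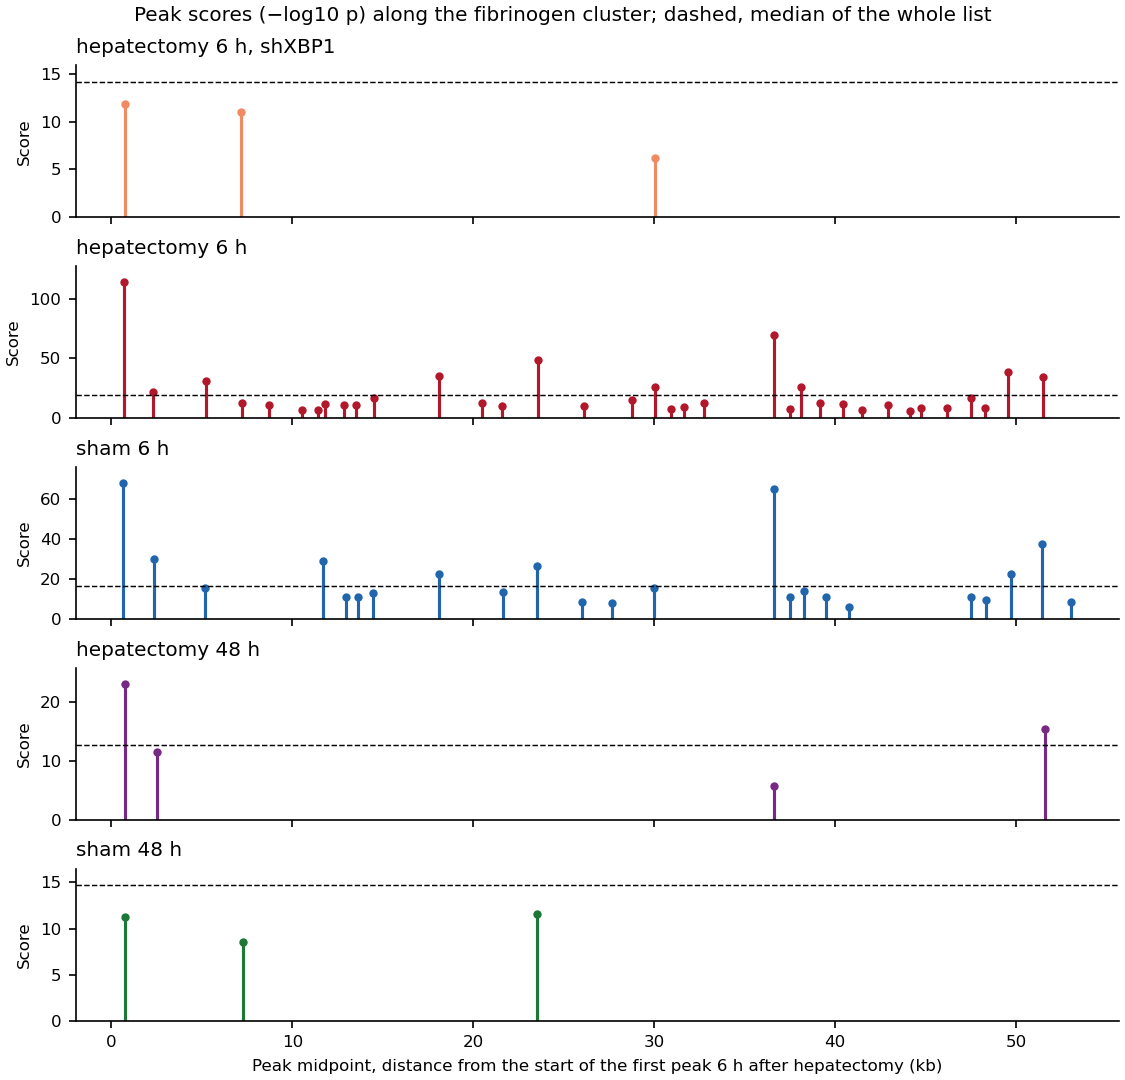
Score of each peak (y axis) against its midpoint in kb from the start of the first peak 6 h after hepatectomy. Scores are read as −log10 p from their values only. Each panel has a scale of its own, since lists may differ in the scale of their scores. The dashed line is the median of the whole list. The peak at the start of the block is the highest in the silenced 6 h panel and in both unsilenced 6 h panels, and most of the other 6 h peaks lie below the dashed line.

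**Figure D5:**
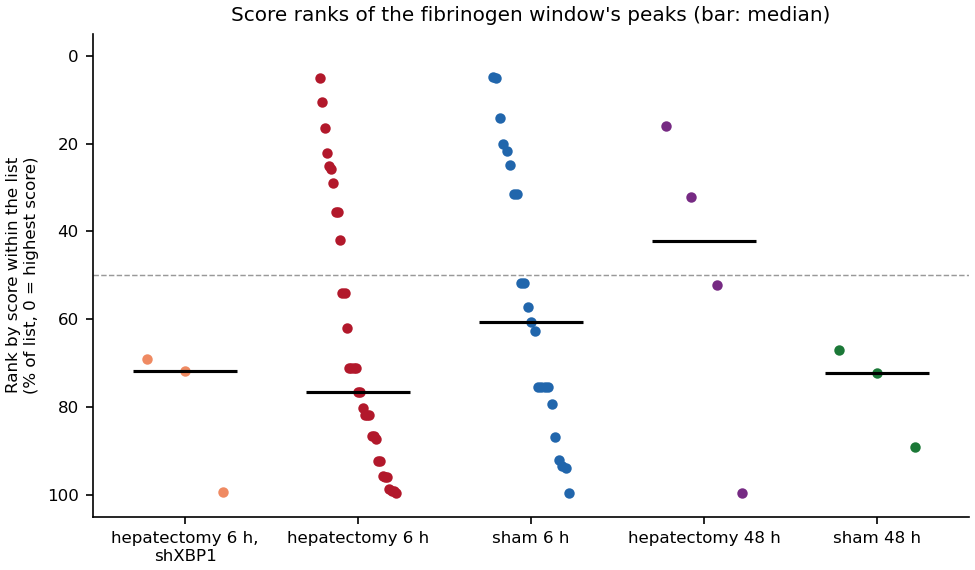
Rank by score within the list (y axis, % of the list, 0 for the highest score) of every peak of the window, for the 5 lists that have any; each point is a peak and the bar is the median. The medians are 71.8% in the silenced 6 h list, 76.7% in the 6 h hepatectomy list, 60.6% in the 6 h sham list, 42.3% in the 48 h hepatectomy list and 72.2% in the 48 h sham list.

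The comparison with sham surgery asks which sites go with the loss of liver mass rather than with the operation. At 6 h a sham peak lay on 22 of the 35 hepatectomy peaks (62.9%, 44.9 to 78.5%), against 76.9% over the whole hepatectomy list and 61.2% in its lower 50% by score. In the other direction a hepatectomy peak lay on 21 of the 23 sham peaks (91.3%, 72 to 98.9%), against 74.1% over the whole sham list and 55.7% in its lower 50%. Hepatectomy peaks covered 42.3% of their span, and the part of this coverage in the overlap was not tested. With overlap over at least 50% of each peak required, the shares were 45.7% and 69.6%.

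Merging the peaks of all lists where they overlapped gave 35 regions, of which 20 carried a peak in both 6 h lists, 13 after hepatectomy but not after sham and 2 after sham but not after hepatectomy. Every region had a peak in at least 1 of both 6 h lists. Over the 20 shared regions Spearman's rho between the lists, which uses only the order of the highest scores in each, was 0.81, across sites of 1 block that are not independent. The midpoints of the 22 hepatectomy peaks with a counterpart lay a median of 61 bp from the nearest sham midpoint.

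Hepatectomy peaks at 6 h without a sham peak of the same time had low scores within their list. Their scores ranged from 6.17 to 14.94 with a median of 9.69, against 6.68 to 113.6 with a median of 17.2 for the hepatectomy peaks with a sham counterpart. The highest were chr3:82834949-82835412 (14.94) and, with 12.77 each, chr3:82813428-82813817, chr3:82826539-82827215 and chr3:82838876-82839402. Of the 13 peaks 11 fell into the 3 longest gaps of the sham list. One such gap, of 6456 bp from 82847294 to 82853749, held 5 hepatectomy peaks with scores from 6.17 to 10.69. Another, of 6151 bp from 82836616 to 82842766, held 3, and the last, of 5970 bp from 82811784 to 82817753, held 3. Both sham peaks without a hepatectomy counterpart, chr3:82833881-82834225 and chr3:82859299-82859573, had scores of 7.97 and 8.67.

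The difference in peak number at 6 h changed with the way peaks were joined or selected. The ratio of hepatectomy to sham peaks was 1.52 in the window and 0.956 over both whole lists. With peaks less than 500 bp apart joined, the block held 20 hepatectomy and 19 sham peaks. With a score of at least 10 required it held 25 and 18, though this cutoff need not mean the same in both lists. Among the 2482 highest-scoring peaks of each list it held 2 and 2. As deposited, 21.9 kb lay under hepatectomy peaks and 12.5 kb under sham peaks. Of the merged regions, 13 had a hepatectomy but no sham peak at 6 h, and 2 had the reverse. Each operation had 1 library, so these differences have no replicate check.

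Silenced and unsilenced liver were set side by side. Silenced livers had also received adenovirus and clodronate liposomes. No label says whether unsilenced livers had either, so silencing cannot be told apart from these treatments. At 6 h after hepatectomy 3 of the 35 unsilenced peaks (8.57%, 1.8 to 23.1%) had a silenced counterpart, against 18.9% over the whole list and 2.24% in its lower 50% by score, where 25 of the 35 ranked. Of the 23 sham peaks 2 lay on a silenced peak, against 17.6% of the whole sham list and 2.64% in its lower 50%, where 15 of the 23 ranked. All 3 silenced peaks lay on an unsilenced hepatectomy peak, as did 98.2% of the silenced list. The ratio of silenced to unsilenced peak numbers was 0.0857 in the window and 0.196 over the lists, but among the 4325 highest-scoring peaks of each list both livers had 3 peaks in the window, and 1 of the 3 lay on a peak of the other list. XBP1's own level in these livers was not measured here.

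The peak at the start of the block was called in all unsilenced livers after surgery and in silenced liver at 6 h. In silenced liver it was chr3:82806908-82807349, 69.1% down its list of 4325 by rank (score 11.8), against 5.17% down the list of 22071 in unsilenced liver (score 113.6). The site chr3:82813320-82813817 had a score of 10.99 in silenced liver and 12.77 in unsilenced liver. The last, chr3:82836261-82836548, had 6.18 in silenced liver, 99.3% down the list, and the unsilenced peak over it had 25.66. The scale of the scores may differ between both lists, so their sizes are not compared. No silenced peak was called at the second site of both 6 h lists, chr3:82842714-82843283, which had 69.19 after hepatectomy and 64.97 after sham.

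Over the course after hepatectomy peaks in the block numbered 0 in basal liver, 35 at 6 h and 4 at 48 h. None of the 35 peaks at 6 h overlapped a basal peak, against 10.9% of the whole 6 h list and 1.21% in its lower 50%. Of the same 35 peaks, 4 (11.4%, 3.2 to 26.7%) had a counterpart at 48 h, against 28.9% of the list and 9.38% in its lower 50%. All 4 peaks at 48 h lay on a 6 h peak, as did 91% of the 48 h list, and none lay on a basal peak, against 30.3% of that list. None of the 4 had a counterpart in silenced liver at 48 h, against 0.915% of that list.

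The 48 h peaks after hepatectomy stood at both ends of the block, with 1 between them 36.6 kb from its start. They were chr3:82806922-82807378 (score 23.06, rank 1160), chr3:82808712-82809058 (11.53, rank 3770), chr3:82842895-82843084 (5.84, rank 7190) and chr3:82857754-82858173 (15.38, rank 2325). Of the regions under them, the first and the third carried the highest scores of the block in both 6 h lists. The third was near the bottom of the 48 h list by score.

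After the sham operation the block had no peak in basal liver, 23 at 6 h and 3 at 48 h. None of the 23 overlapped a basal peak, against 10.5% of the list and 1.05% in its lower 50%. A counterpart at 48 h was found for 2 of them (8.7%, 1.07 to 28%), against 19.4% of the list and 3.23% in its lower 50%. Of the 3 peaks at 48 h 2 lay on a 6 h sham peak, against 97.7% of the 48 h list, and none on a basal peak, against 44% of the list. They were chr3:82806896-82807364 (score 11.21, rank 3337), chr3:82813509-82813774 (8.57, rank 4119) and chr3:82829646-82830115 (11.54, rank 3096), all in the lower 50% of the list. The peak at 82813509 was the one without a sham counterpart at 6 h.

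At 48 h both operations shared 1 site. A sham peak lay on 1 of the 4 hepatectomy peaks, against 47.1% of the list, and a hepatectomy peak on 1 of the 3 sham peaks, against 72.5%. It was again the start of the block. Peak numbers after hepatectomy were 1.33 times those after sham in the window and 1.56 times over the lists.

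Across all lists, 7 of the 35 regions carried a peak in 3 or more. The start of the block, chr3:82806381-82807798, was the only one called in 5 lists, with scores of 11.8 in silenced 6 h liver, 113.6 and 67.69 at 6 h and 23.06 and 11.21 at 48 h after hepatectomy and sham. The other 6 were called in 3 lists each. They were chr3:82808276-82809100, chr3:82842714-82843283 and chr3:82857447-82858268, each in both 6 h lists and 48 h after hepatectomy, and chr3:82829516-82830400, in both 6 h lists and 48 h after sham. The region chr3:82835912-82836897 was called in both unsilenced 6 h lists and in the silenced one. The region chr3:82813320-82813817 was called 6 h after hepatectomy in silenced and unsilenced liver and 48 h after sham. The remaining 28 regions were called in 6 h livers without silencing and in no other library.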

How the data were processed

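Peak lists of 8 XBP1 ChIP-seq libraries of mouse liver were used, 1 library per condition, grouped by the sample titles. Bowtie2, MACS 1.4.2 and build mm9 are named in the submitters' processing notes. Settings, read numbers and whether the input was a control are not given in the sources used. Lists gave chromosome, start, end, name and score, and peaks were called per sample. The authors deposited a score per peak, read here as a p-value on the −log10 scale because of its values: of the scores under 60, between 28.8% and 65.9% per list fell within 0.01 of the steps of −log10 Poisson tail probabilities for 1 mean, and between 6.93% and 23.5% on a scale 10 times as fine. Scores were ranked within a list, and scores of different lists are printed side by side without comparing their size. The alternative with a score of at least 10 is an exception, since it used 1 cutoff for lists whose scales may differ.

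Members were peaks with their midpoint in the window. Peaks were counterparts when they overlapped by at least 1 bp. Shares carry exact Clopper-Pearson 95% intervals, and a count of 0 is given its limit of 3 counts. No test was run, since the window was chosen by its peak number and each condition had 1 library. Whole-list shares were computed over all peaks of a list. Ranks count the peaks with a higher score. The members, the gene list, the motifs and the alternatives were chosen with earlier results of these data known. The peaks named are all those of lists with 5 or fewer in the window, otherwise the 5 highest-scoring, the widest, the first and last, and the highest-scoring without a counterpart, and regions in 3 or more lists. Alternatives were membership by overlap, the last 100 kb of the window, a score of at least 10, merging of peaks less than 500 bp apart, equal numbers of highest-scoring peaks, overlap of 50% of both peaks, midpoints within 250 bp and peaks resized to 500 bp. The comparison with other windows of 150 kb and its alternatives were added after seeing the data. Counting was tested on simulated lists against bedtools 2.31.1. Python 3.11.15, NumPy 2.4.6, SciPy 1.17.1 and matplotlib 3.10.9 were used. Coordinates are 1-based. Planned counts near coagulation genes were not run, since no mm9 annotation was used here. Promoters came from RefSeq (GRCm38.p6), matched by symbol.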

Additional observations from a re-analysis of the deposited data

How the results depend on the processing

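Limits were set by kind of value. A count had to stay within 1.5 times, and a share within its interval. A median had to stay within the middle 50% of the values behind it, and a window rank had to be identical. Of 101 alternative values, 84 met these limits. The other 17 did not, and whether a difference between lists changed direction was not assessed. Membership by overlap and the last 100 kb of the window gave the same counts in every list. With peaks less than 500 bp apart merged, the 6 h count was 20 after hepatectomy, against 35 as deposited, by construction of the merging. Among the 2482 highest-scoring peaks per list the window held 2 peaks 6 h after hepatectomy, 2 after sham, 2 at 48 h after hepatectomy and 0 at 48 h after sham, and 0 in basal liver. With overlap of 50% of both peaks, 69.6% of the 6 h sham peaks had a hepatectomy counterpart, 2.86% of the 6 h hepatectomy peaks had one at 48 h, and 25% of the 48 h hepatectomy peaks had one at 6 h. The last rests on 4 peaks, which are narrower at 48 h than at 6 h. With equal numbers of highest-scoring peaks, which left 3 to 7 peaks in the window, 33.3% of the 6 h hepatectomy peaks had a silenced counterpart and 42.9% one at 48 h, and 33.3% of the 6 h sham peaks had one at 48 h. A score of at least 10 raised the share of 48 h sham peaks found at 6 h to 100% (2 of 2). It also set the median gap to 5970 bp in silenced and 1240 bp in unsilenced liver 6 h after hepatectomy, 25000 bp at 48 h after hepatectomy and 22300 bp at 48 h after sham, since fewer peaks entered. The window's rank by peak number, an alternative added after seeing the data, was 2 in the 6 h sham list at that score, shared with other windows. No paired analysis was possible because the labels give no replicate numbers and the values, being from a window chosen by its peak number, come from no test; silenced and unsilenced liver were set side by side within each state. Read depth was not known, so shorter lists and fewer sites cannot be told apart.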
